A study of Homo sapiens with 16 samples.

Results

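The 32 genes described here encode chaperones, folding enzymes, stress sensors and degradation factors of the endoplasmic reticulum (ER). They were chosen by name for their part in ER protein folding and the unfolded protein response, with earlier results of these data known. They were found by Ensembl gene ID among the 60676 gene IDs counted in each library. All 32 were present, and 31 were among the 21810 genes with enough reads to test. The exception was DERL3, a relative of the ER membrane proteins DERL1 and DERL2, which had 0 to 11 reads per library. DERL3 lies across from SMARCB1 on the opposite strand, and the strand setting of the read counting is not given in the sources used here.

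RNA was sequenced from LNCaP cells, a human prostate adenocarcinoma line that depends on androgen signalling, after removal of ribosomal RNA. The 4 groups of 4 libraries were RB-p53 double knockout (DKO) cells given 50 µM enzalutamide (EZ), an androgen receptor antagonist, DKO cells given the solvent DMSO, wild-type (WT) cells given EZ and WT cells given DMSO, each for 6 days in RPMI-1640 medium with fetal bovine serum. The knockout was made with CRISPR-Cas9, and the sources used here do not say whether DKO cells are 1 clone or many, nor whether replicates were separate cultures. The p-values therefore measure the spread between these libraries, which may be technical.

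Libraries held 11823438 to 47678648 counts. RB1 stood at 9.94 to 13.4 CPM (reads as a share of the library's TMM-scaled total) in DKO EZ, 9.04 to 11.7 in DKO DMSO, 95.6 to 122 in WT EZ and 101 to 128 in WT DMSO, so every DKO library lay below every WT library. All 11 luminal prostate markers were detected, with summed levels of 3497 to 5087 CPM in DKO EZ, 3741 to 4621 in DKO DMSO, 6581 to 8625 in WT EZ and 6728 to 7517 in WT DMSO. The 5 basal markers summed to at most 6.25 CPM in any library, with KRT5 and KRT6A below 0.1 CPM in all 16, and the 6 endothelial markers to at most 17.6. The 7 fibroblast markers, with COL1A2 below 0.1 CPM in all 16 libraries, summed to 38.1 to 52.2 CPM in DKO EZ, 27.2 to 47.0 in DKO DMSO, 15.5 to 21.6 in WT EZ and 16.9 to 22.3 in WT DMSO. Every DKO library thus had a lower luminal sum and a higher fibroblast sum than every WT library. The part of these marker differences in the genotype results below was not tested. The cytoplasmic RNA RN7SL1, the RNA of the particle that brings secretory proteins to the ER, took 0.220% to 0.621% of counts in 6 libraries (replicates 1 and 2 of both DKO groups and replicate 1 of both WT groups) and 0.0481% to 0.117% in the other 10.

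Proteins that enter the ER are folded by HSP70 and HSP90 type chaperones and by lectin chaperones that bind their sugar chains, while disulfide isomerases and oxidases form their disulfide bonds. Proteins that fail to fold are moved back to the cytosol and degraded. When unfolded proteins accumulate, the sensors ERN1 (IRE1), ATF6 and EIF2AK3 (PERK) start the unfolded protein response: ERN1 splices the mRNA of the transcription factor XBP1, ATF6 is cut to release a transcription factor, and EIF2AK3 slows translation and raises ATF4 and DDIT3. Secretory epithelia such as the prostate lumen make large amounts of secreted protein, and androgen is known to affect this response in prostate cancer cells.

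ATF6 and XBP1 act on short promoter elements, so the promoters of the members were read for them, in windows from 250 bases before to 50 after each start (RefSeq, GRCh38.p14), for the 28 members with an entry. The ER stress element (ERSE), CCAAT and CCACG with 9 bases between, was searched on both strands and was present in 8 of 28 members (28.6%) and in 25 of all 27305 genes (0.0916%). Its relative ERSE-II, ATTGG and CCACG with 1 base between, was present in 3 of 28 members (10.7%) and in 19 genes (0.0696%), and the UPRE core bound by XBP1, TGACGTGG, in 2 of 28 members (7.14%) and in 253 genes (0.927%). Only exact matches were counted. A match describes letters in a window and is not a bound site. The members were chosen for their part in this response and are themselves among all genes, so these shares are no test of enrichment. The bases before the start are shown for HSPA5 (chr9:125241344-125241593, minus strand), the classical gene of the response, and, ending before the earlier GENCODE start, for HERPUD1 (chr16:56931892-56932047, plus strand), whose call between genotypes in DMSO, given below, was kept in 26 of 27 alternatives. Capitals mark the fixed letters of the ERSE in HSPA5, 66 to 48 bases before the start, and of the ERSE-II in HERPUD1, 117 to 107 bases before the RefSeq start.
HSPA5: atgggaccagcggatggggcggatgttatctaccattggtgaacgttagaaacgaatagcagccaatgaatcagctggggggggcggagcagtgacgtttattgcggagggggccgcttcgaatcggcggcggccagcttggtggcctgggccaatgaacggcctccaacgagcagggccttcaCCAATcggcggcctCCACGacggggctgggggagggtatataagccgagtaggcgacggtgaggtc
HERPUD1: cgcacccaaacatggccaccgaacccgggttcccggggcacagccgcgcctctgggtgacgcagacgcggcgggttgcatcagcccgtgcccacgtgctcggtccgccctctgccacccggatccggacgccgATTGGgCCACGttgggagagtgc

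The ERSE copies of the other 7 members with one are shown in the orientation of the motif, with its fixed letters in capitals, to show how far the 9 letters between the fixed ends differ. HSP90B1 held 2 copies. They were on the strand of the gene in CANX, PDIA6, XBP1 and the first HSP90B1 copy, and on the opposite strand in CALR, CRELD2, ERO1B and the second HSP90B1 copy.
CALR: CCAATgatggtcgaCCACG
CANX: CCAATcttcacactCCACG
CRELD2: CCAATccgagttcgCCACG
ERO1B: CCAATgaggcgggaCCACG
HSP90B1 first: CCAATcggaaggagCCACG
HSP90B1 second: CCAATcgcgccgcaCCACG
PDIA6: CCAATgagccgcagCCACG
XBP1: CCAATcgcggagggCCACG

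HYOU1 held 2 copies of ERSE-II, both ATTGGaCCACG, 1 of which overlaps a UPRE core, and SDF2L1 held 1, ATTGGtCCACG. The UPRE core in DNAJC10 lay 125 to 118 bases before the start.

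The members covered a wide range of levels. Per kilobase of exon, the mean levels in WT DMSO were highest for CALR (591 CPM per kb), a lectin chaperone, followed by HSPA5 (367), CANX (336), HSP90B1 (335) and P4HB (314). XBP1 came next at 146 CPM per kb, and SDF2L1 (5.44) and DERL3 (0.0579) were last. Of the 31 pairs of neighbours in this order, 29 had overlapping ranges over the 4 libraries, and only P4HB stood apart from XBP1, and SDF2L1 from DERL3. CALR was also first in the other 3 groups, at 437 CPM per kb in DKO EZ, 466 in DKO DMSO and 719 in WT EZ, and the 5 leading genes were the same 5. The members together took 0.696% to 1.27% of a library's counts. Reads of SYVN1, which shares bases with FAU on the same strand, and of DNAJB9, DNAJB11, CRELD2, DERL1, DERL2 and ERO1B, which overlap expressed genes on the opposite strand, may be divided between genes.

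**Figure D1:**
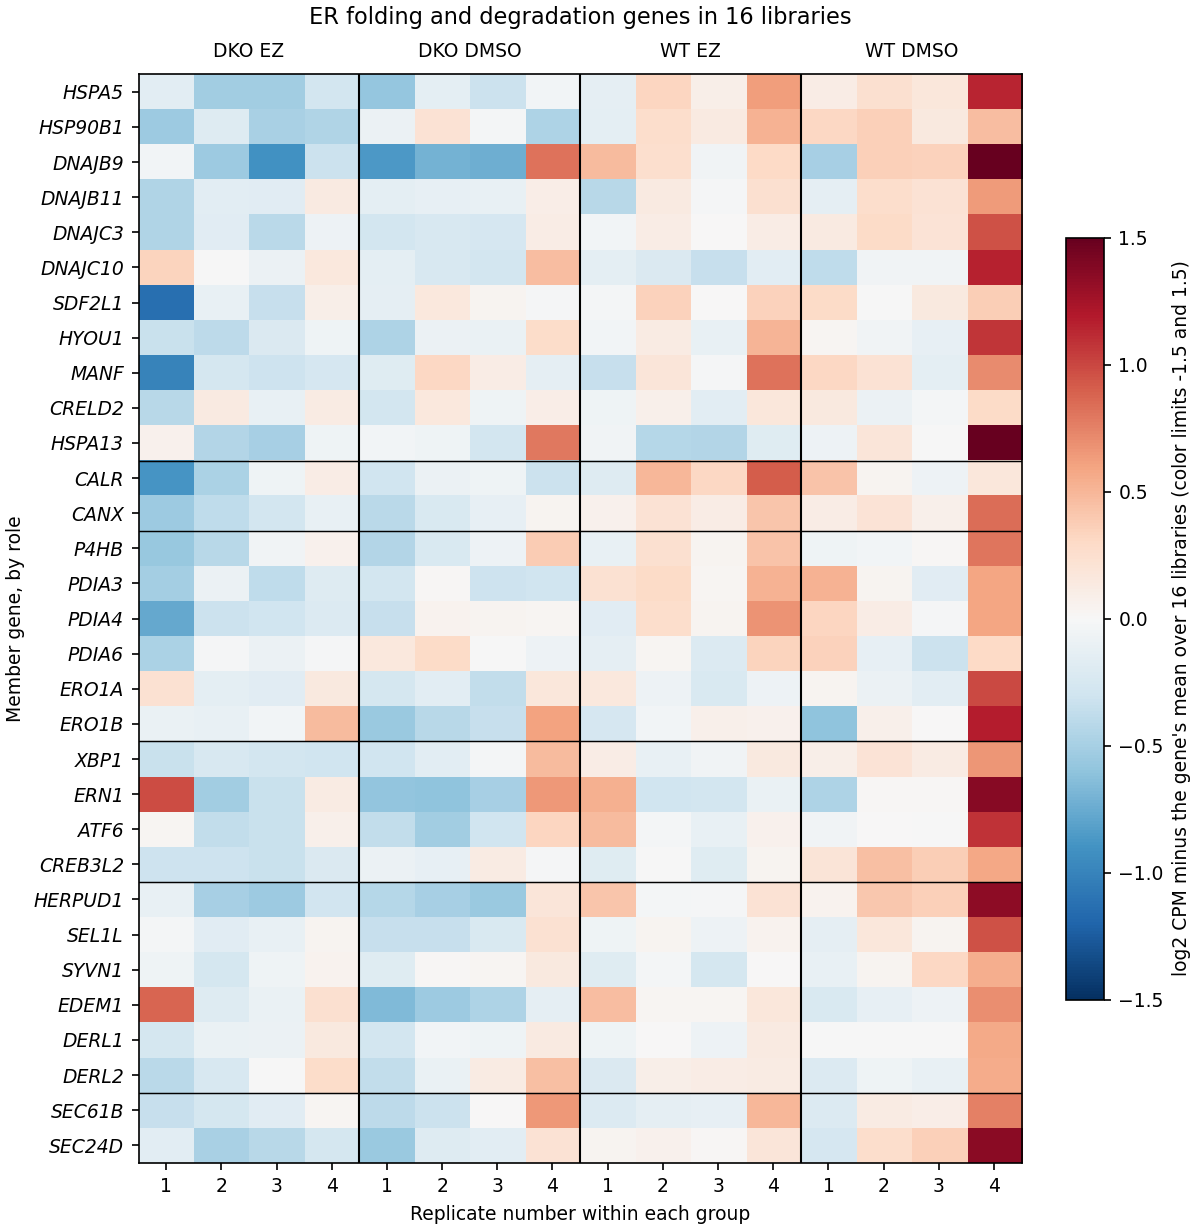
Level of each tested member in each library, as log2 CPM minus the gene's mean over the 16 libraries (red higher, blue lower, colour limits −1.5 and 1.5), with rows by role and columns by group and replicate number. The WT DMSO replicate 4 column is red for nearly all members.

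One library has to be described before the group comparisons. In WT DMSO replicate 4, 29 of 31 members (93.5%) had their highest level of the 4 WT DMSO libraries, where 32.7% of all tested genes did, and the exceptions were CALR and PDIA6. The members lay a median of 0.73 (log2) above the median of the other 3 libraries, against −0.02 for all tested genes. This excess was not particular to the members. Of other ER genes, listed by function below, 94.1% of response signalling and 93.75% of export genes were highest there. The share was 83.3% for translocation and for sugar chain genes, 70% for degradation genes and 63.6% for folding enzymes. Medians of these lists ran from 0.34 (degradation) to 0.68 (signalling). In DKO DMSO replicate 4, 22 of 31 members (71.0%) were the highest of their group, against 37.4% of all tested genes. The same number was highest for 17 members in DKO EZ and for 21 in WT EZ, against 33.7% and 24.8% of all tested genes.

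The size of the excess differed between members. Over the median of the other 3 libraries, WT DMSO replicate 4 was 3.41-fold for DNAJB9 (ERdj4), a cofactor that carries misfolded proteins to HSPA5, 2.88-fold for the HSP70-like HSPA13, 2.56-fold for the sensor ERN1 and 2.32-fold for the disulfide reductase DNAJC10. In all, 9 members were over 2-fold above that median and 18 over 1.5-fold. The abundant chaperones HSP90B1 (GRP94) and CALR lay 1.11-fold and 1.09-fold above it. In DKO DMSO replicate 4 the leading ratios were 2.92-fold for DNAJB9, 2.36-fold for ERN1 and 2.03-fold for the oxidase ERO1B, while HSP90B1 was at 0.739-fold and CALR at 0.852-fold of the others. The 8 members with an ERSE had a median of 1.40-fold in WT DMSO replicate 4, against 1.78-fold for the 20 with a promoter entry and no ERSE, and 1 and 7 of them were over 2-fold. The 20 include the members with an ERSE-II or a UPRE core. These are DNAJC10 (2.32-fold), HYOU1 (2.19-fold), HERPUD1 (1.97-fold) and SDF2L1 (1.16-fold). Only exact matches were counted, so a member without an ERSE here may hold a near copy. The HERPUD1 window holds a copy that differs from the ERSE in its last letter alone.

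Genes of the response outside the list also stood high in this library. DDIT3 (CHOP), a transcription factor downstream of EIF2AK3, stood at 169 CPM in WT DMSO replicate 4 and at 26.5 to 37.6 in the other 3, and at 78.7 CPM in DKO DMSO replicate 4 and at 25.5 to 29.9 in the other 3. The sensor EIF2AK3 stood at 103 CPM in WT DMSO replicate 4, against 41.4 to 48.1 in the other 3, and at 71.0 to 127 in DKO EZ and 60.9 to 76.7 in WT EZ. DDIT3 was also high in replicate 1 of both EZ groups, at 80.3 CPM in DKO EZ, against 30.0 to 52.9 in the other 3, and at 72.1 in WT EZ, against 28.1 to 36.0. EIF2AK3 had its highest level of all 16 libraries in DKO EZ replicate 4. The ER stress gene SERP1 stood at 845 CPM in WT DMSO replicate 4, against 309.7 to 391. The proliferation marker MKI67 stood at 34.0 CPM there, against 140.3 to 240.0 in the other WT DMSO libraries, and at 81.7 in DKO DMSO replicate 4, against 264 to 286. These 2 libraries also had the lowest mitochondrial shares of the DMSO libraries, 0.677% in DKO and 0.946% in WT. The part of proliferation, of mitochondrial RNA or of culture state in the members' levels was not tested. For the medians of the comparisons with DMSO, and for the members called between genotypes in DMSO, values without WT DMSO replicate 4 or without both libraries are also given below.

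**Figure D2:**
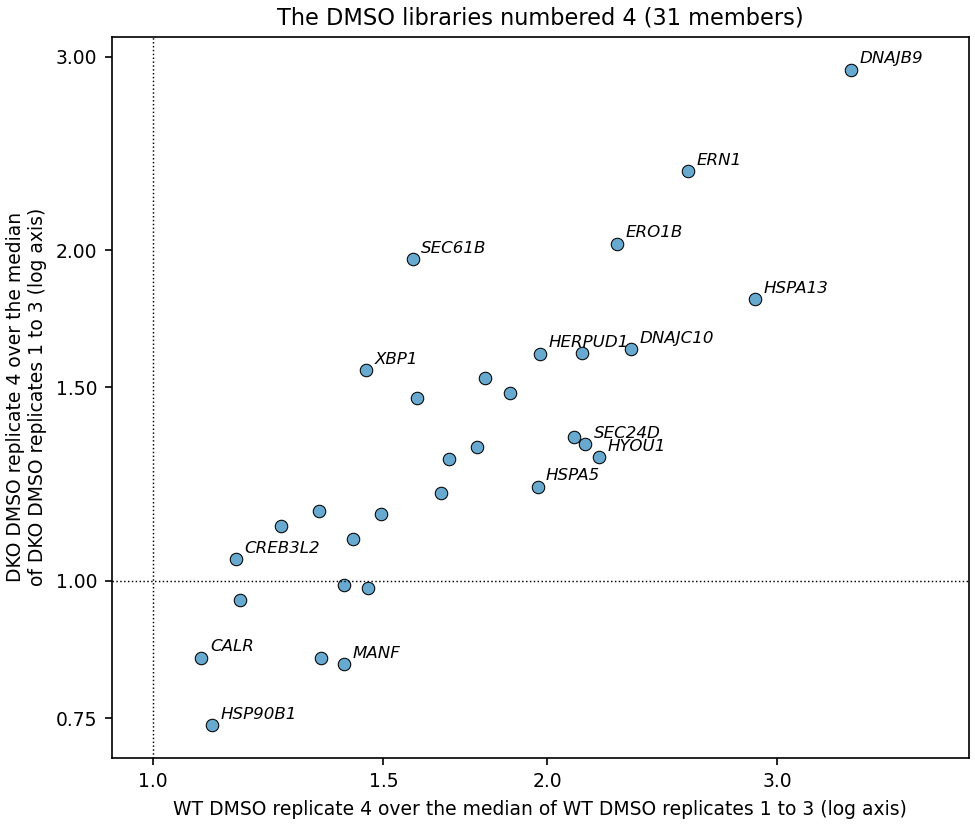
Each point is 1 of the 31 tested members. The horizontal axis gives its level in WT DMSO replicate 4 over the median of WT DMSO replicates 1 to 3, the vertical axis the same ratio in DKO DMSO, both on log axes with dotted lines at equal levels. All points lie right of the vertical line and 24 lie above the horizontal one, with DNAJB9 farthest out at 3.41 and 2.92.

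The first comparison was between genotypes. In DMSO, 6 of 31 members were lower in DKO than in WT past the threshold (edgeR quasi-likelihood F-test, Benjamini-Hochberg adjusted p under 0.05 over all tested genes) and 0 were higher, with 18.6% of all tested genes called, 9.7% lower and 8.91% higher. They were HSPA5, CANX, PDIA3, HERPUD1, DNAJC3 and CREB3L2. In EZ, 5 of 31 members were lower and 0 higher, with 20.7% of all tested genes called, 11.4% lower and 9.29% higher. They were HSP90B1, CALR, CANX, PDIA3 and PDIA4. CANX and PDIA3 were thus called under both treatments. In either direction, 19.4% of the tested members were called in DMSO and 16.1% in EZ, against 18.6% and 20.7% of all tested genes. These counts, and their parts by role below, are thus no result about the members as a set. The members' median log2 fold change was −0.40 in DMSO, where all tested genes had −0.06 and 30 of 31 members were below 0, and −0.25 in EZ, where all genes had −0.01 and 24 members were below 0. The DMSO median moved with WT DMSO replicate 4. Without that library it was −0.09, with 20 of 31 members below 0 and all genes at −0.0039, and without both DMSO libraries numbered 4 it was −0.25, with 29 below 0 and all genes at −0.07. With library totals in place of TMM the medians of members and of all genes were −0.17 and 0.14 in DMSO and −0.00 and 0.23 in EZ, so that the members lay below all genes by a like amount while 1 and 0 of them were called, with 20.9% and 23.6% of all tested genes. In bulk RNA, less of a transcript per cell and fewer cells with it cannot be told apart.

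Among the HSP70 and HSP90 chaperones and their cofactors, 2 of 11 were lower in DKO in DMSO and 1 of 11 in EZ. HSPA5 (BiP, ENSG00000044574, chromosome 9, 125234853 to 125241330), the HSP70 of the ER that also holds the sensors inactive, had 918, 716, 716 and 851 CPM in DKO EZ and 937, 1284, 1089 and 1590.1 in WT EZ. In DMSO it had 688, 928, 819 and 998 CPM in DKO and 1106, 1215, 1152 and 2266 in WT. Every DKO library lay below every WT library under both treatments, and the WT DMSO value of 2266 was replicate 4. The log2 fold change was −0.74 ± 0.22 (SE) in DMSO (edgeR adjusted p = 0.0235) and −0.61 ± 0.22 in EZ (edgeR adjusted p = 0.0537). The DMSO call of HSPA5 was lost without WT DMSO replicate 4 (−0.39, edgeR adjusted p = 0.145), DKO DMSO replicate 1 (−0.65, 0.0775) or DKO DMSO replicate 3 (−0.72, 0.0623), and in EZ it passed without WT DMSO replicate 4 (0.0114) or WT EZ replicate 1 (0.0430).

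HSP90B1 (ENSG00000166598, chromosome 12, 103930107 to 103953645), the HSP90 of the ER, had 525, 674, 546 and 562 CPM in DKO EZ and 696, 925, 840.1 and 1103 in WT EZ, with no overlap. Its DMSO levels were 720.3, 891, 752 and 556 CPM in DKO and 950.5, 981, 853 and 1055 in WT, and the groups overlapped. HSP90B1 was lower in DKO in EZ (log2 fold change −0.63 ± 0.15, edgeR adjusted p = 0.00725; 0.0611 without WT EZ replicate 4), and its difference in DMSO was −0.40 ± 0.15 (edgeR adjusted p = 0.0849; 0.0452 without DKO DMSO replicate 2). DNAJC3 (p58IPK, ENSG00000102580, chromosome 13, 95677139 to 95794989), a J-domain cofactor that also restrains EIF2AK3, had 131, 134, 133 and 172 CPM in DKO DMSO and 174, 193, 182 and 306 in WT DMSO. Its DKO EZ levels were 116, 140.2, 119 and 151 CPM and its WT EZ levels 154, 172, 159 and 171. DNAJC3 overlapped between genotypes under neither treatment and was lower in DKO in DMSO (log2 fold change −0.59 ± 0.16, edgeR adjusted p = 0.0149; −0.32 and 0.0791 when WT DMSO replicate 4 was dropped), with −0.32 ± 0.16 in EZ (edgeR adjusted p = 0.175).

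DNAJB9 (ENSG00000128590, chromosome 7, 108569568 to 108574850) had 47.6, 33.8, 26.3 and 39.4 CPM in DKO EZ and 68.5, 58.7, 47.2 and 60.3 in WT EZ. Levels in DMSO were 27.1, 30.1, 29.6 and 86.4 CPM in DKO and 34.8, 62.7, 62.7 and 214 in WT, where both replicates 4 stood far above the rest. Its log2 fold change of −1.11 ± 0.50 in DMSO was the largest of the members and did not pass (edgeR adjusted p = 0.148), nor did −0.68 ± 0.50 in EZ (0.396). Without both DMSO libraries numbered 4 DNAJB9 was lower in DKO in DMSO (−0.89, edgeR adjusted p = 0.0133) and in EZ (−0.68, 0.0184), and without DKO DMSO replicate 4 alone the DMSO value was −1.69 (0.0270). With WT DMSO replicate 4 alone dropped the DMSO value was −0.25 (edgeR adjusted p = 0.704). The other 7 of this role ran from −0.41 for HSPA13 to −0.10 for CRELD2, an ER-resident factor, in DMSO (log2 fold change), with HYOU1, a nucleotide exchange factor for HSPA5, at −0.40. In EZ they ran from −0.65 (MANF, a secreted ER stress protein that binds HSPA5) to 0.32 (DNAJC10). DNAJC10 was the only member whose DKO EZ libraries, at 241 to 323 CPM, all lay above the WT EZ libraries, at 202 to 231.

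**Figure D3:**
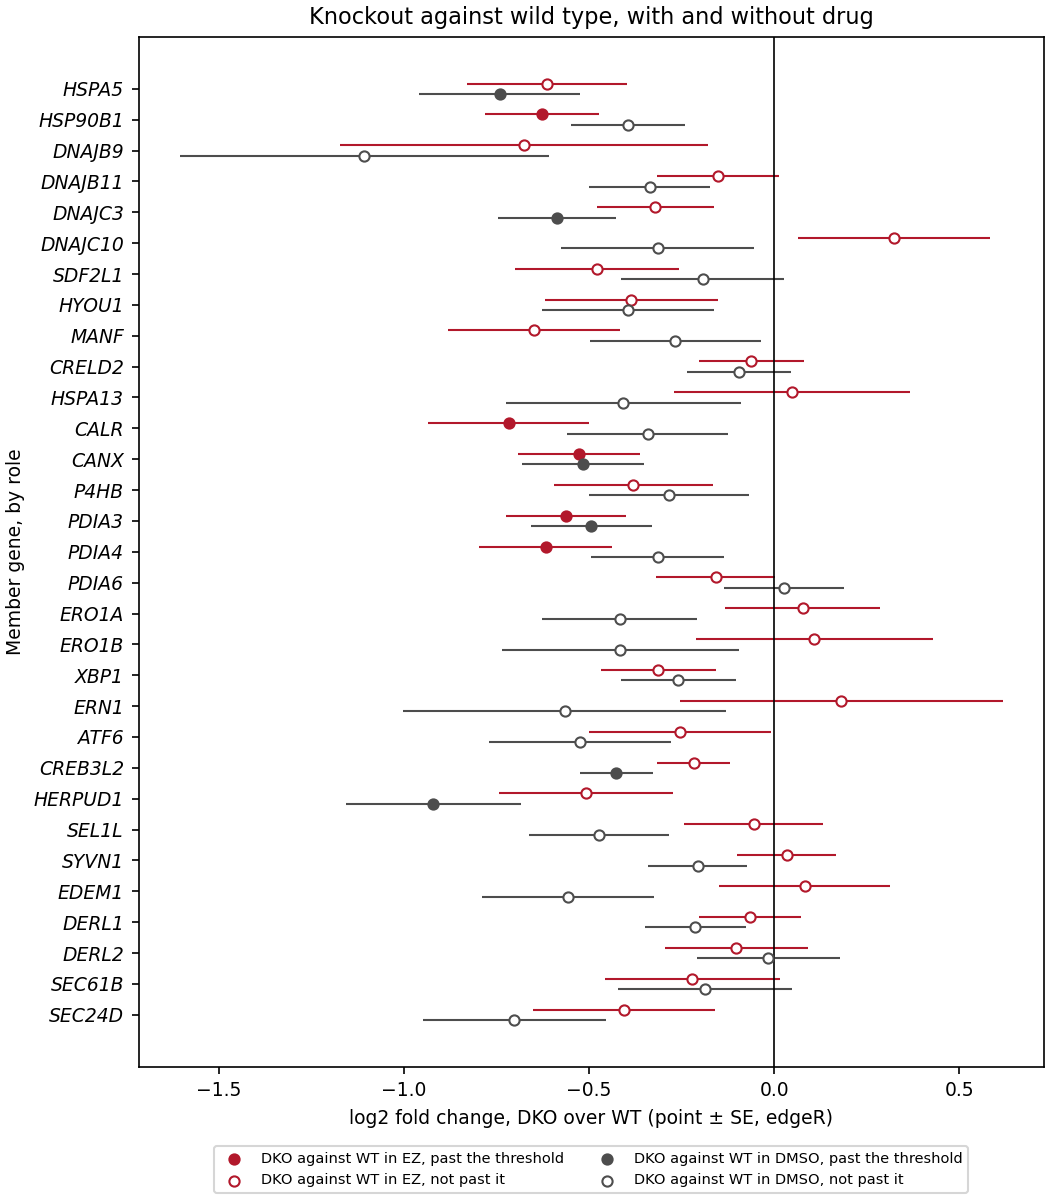
Log2 fold change of DKO over WT for the 31 tested members by role, in EZ (red) and in DMSO (grey), as point ± SE from edgeR, with filled points past the threshold. All DMSO points but PDIA6 lie left of 0, and the filled points in EZ are HSP90B1, CALR, CANX, PDIA3 and PDIA4.

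Both lectin chaperones were lower in DKO in EZ, and CANX also in DMSO. CANX (calnexin, ENSG00000127022, chromosome 5, 179678628 to 179730925), the membrane-bound one, had 805, 909, 970.2 and 1095 CPM in DKO EZ and 1232, 1366, 1273 and 1573 in WT EZ. In DMSO it had 892, 1005, 1079 and 1208 CPM in DKO and 1269, 1362, 1242 and 2108 in WT. CANX overlapped between genotypes under neither treatment, with log2 fold changes of −0.53 ± 0.16 in EZ (edgeR adjusted p = 0.0305) and −0.52 ± 0.16 in DMSO (edgeR adjusted p = 0.0369). Its DMSO call held without WT DMSO replicate 3, DKO DMSO replicate 4 or DKO EZ replicate 2, 3 or 4 and was lost without any 1 of the other 11 libraries (log2 fold change −0.26 and the highest edgeR adjusted p, 0.221, when WT DMSO replicate 4 was dropped; −0.38 and 0.0625 without both DMSO libraries numbered 4). In EZ it was lost without WT DMSO replicate 2, WT EZ replicate 2 or 4, or DKO EZ replicate 1, 2 or 3 (highest edgeR adjusted p 0.141, without WT EZ replicate 4).

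CALR (calreticulin, ENSG00000179218, chromosome 19, 12938578 to 12944489), the soluble one, which also buffers calcium, had 548, 727, 963 and 1090.2 CPM in DKO EZ and 886, 1432, 1249 and 1904 in WT EZ. With DMSO it stood at 823, 948, 969 and 807 CPM in DKO and 1357, 1043, 961 and 1136 in WT. The genotypes overlapped under both treatments, and CALR was lower in DKO in EZ (log2 fold change −0.72 ± 0.22, edgeR adjusted p = 0.0259), with −0.34 ± 0.22 in DMSO (edgeR adjusted p = 0.312). The call of CALR was lost without WT EZ replicate 2 (edgeR adjusted p = 0.0681) or 4 (0.151), or DKO EZ replicate 1 (0.0972) or 2 (0.0771).

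Of the 6 disulfide isomerases and oxidases, 1 was lower in DKO in DMSO and 2 in EZ. PDIA3 (ERp57, ENSG00000167004, chromosome 15, 43746392 to 43773279), the isomerase that works with CANX and CALR, had 263, 350.4, 288 and 326 CPM in DKO EZ and 437, 457, 382 and 537 in WT EZ. In DMSO it had 308, 377, 300.4 and 304 CPM in DKO and 537, 385, 331 and 562 in WT. PDIA3 overlapped in DMSO and not in EZ, with log2 fold changes of −0.49 ± 0.16 (edgeR adjusted p = 0.0420) and −0.56 ± 0.16 (0.0197). Its DMSO call held only without WT DMSO replicate 3, DKO DMSO replicate 2 or DKO EZ replicate 2 or 4 and was lost without any 1 of the other 12 libraries, where the edgeR adjusted p was up to 0.219 (log2 fold change −0.33, WT DMSO replicate 4 dropped). In EZ it was lost without WT EZ replicate 1, 2 or 4 or DKO EZ replicate 1 or 3 (highest 0.125, without WT EZ replicate 4).

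PDIA4 (ERp72, ENSG00000155660, chromosome 7, 149003062 to 149028641), another isomerase, had 186, 254, 257 and 276 CPM in DKO EZ and 281, 382, 326 and 506 in WT EZ. Its DMSO values were 249.5, 330.5, 327 and 324 CPM in DKO and 396, 342, 315 and 479 in WT. PDIA4 did not overlap in EZ and was lower in DKO there (log2 fold change −0.62 ± 0.18, edgeR adjusted p = 0.0207), with −0.31 ± 0.18 in DMSO (edgeR adjusted p = 0.255). The EZ call was lost without WT EZ replicate 2 (edgeR adjusted p = 0.0589) or 4 (0.139) or DKO EZ replicate 1 (0.0901). The isomerases P4HB and PDIA6 and the oxidases ERO1A and ERO1B, which pass oxidising equivalents to the isomerases, ranged from −0.42 to 0.03 in DMSO and from −0.38 to 0.11 in EZ without passing.

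**Figure D4:**
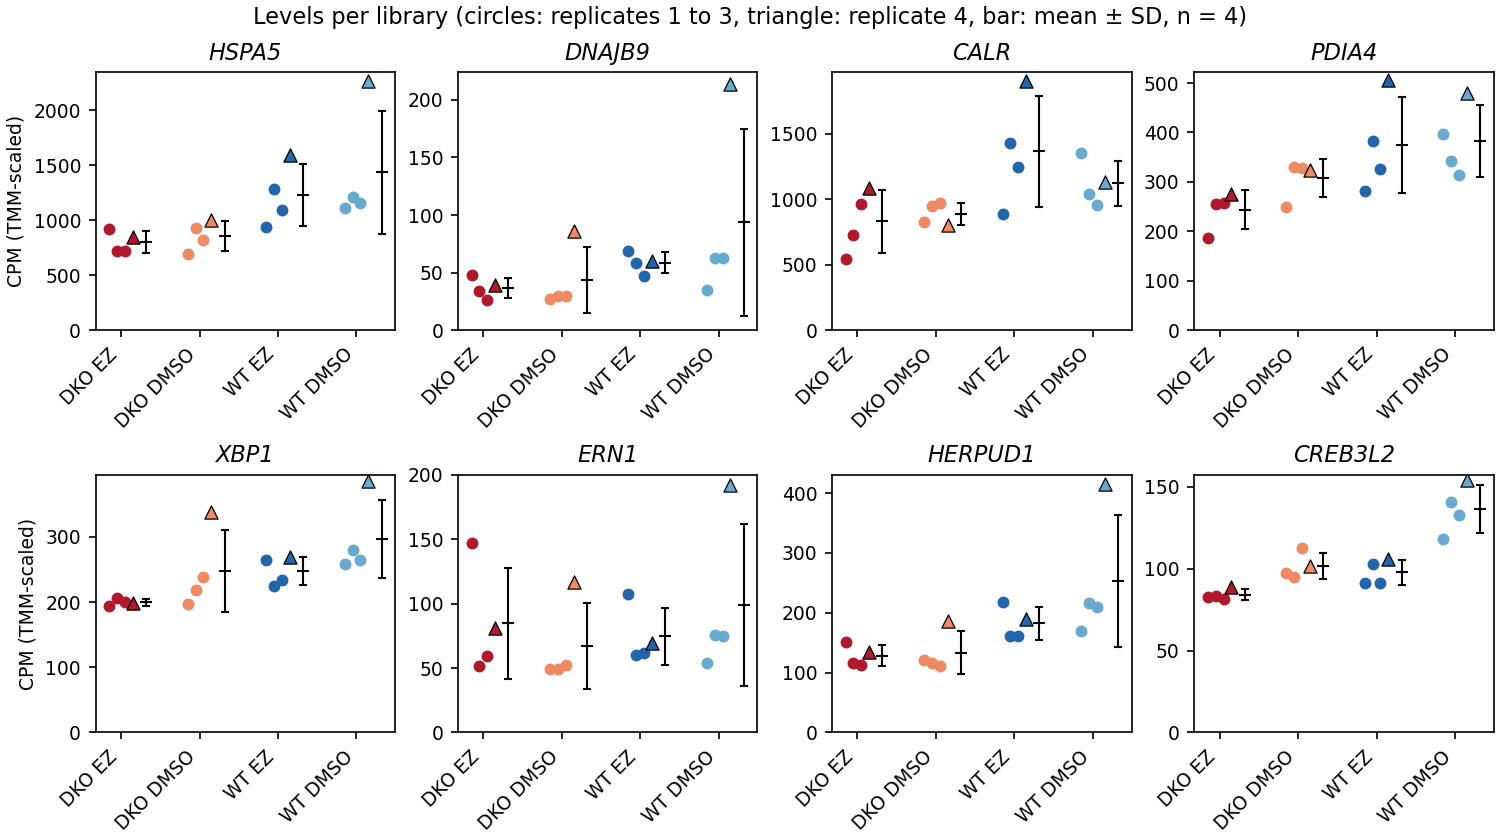
CPM per library of 8 members in DKO EZ, DKO DMSO, WT EZ and WT DMSO, with circles for replicates 1 to 3, a triangle for replicate 4 and a bar for mean ± SD (n = 4), each panel on its own axis from 0. The WT DMSO triangle is the highest point of its group except in CALR, and CREB3L2 has its lowest levels in DKO EZ and its highest in WT DMSO.

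Of the 4 sensors and transcription factors, CREB3L2 alone was called between genotypes, and in DMSO only. CREB3L2 (BBF2H7, ENSG00000182158, chromosome 7, 137874979 to 138002067), a membrane-bound transcription factor that acts on genes of ER-to-Golgi transport such as SEC23A, had 82.8, 83.1, 81.4 and 88.8 CPM in DKO EZ and 91.0, 103, 90.9 and 106 in WT EZ. In DMSO it had 97.1, 94.7, 112 and 102 CPM in DKO and 118, 141, 133 and 154 in WT. Its DKO libraries lay below its WT libraries under both treatments, with log2 fold changes of −0.43 ± 0.10 in DMSO (edgeR adjusted p = 0.00512) and −0.22 ± 0.10 in EZ (0.136). The DMSO call held without any 1 library, with −0.32 (edgeR adjusted p = 0.0436) when WT DMSO replicate 4 was dropped. It was lost with library totals (−0.22, edgeR adjusted p = 0.135) and with no filter on low counts (−0.38, 0.0882). Without all libraries numbered 4 it was also lost (−0.28, edgeR adjusted p = 0.0791).

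XBP1 (ENSG00000100219, chromosome 22, 28794555 to 28800597) had 194, 206, 201 and 198 CPM in DKO EZ and 264, 225, 234 and 269 in WT EZ, with no overlap. XBP1 in DMSO stood at 198, 218, 238 and 339 CPM in DKO and 258, 279.9, 265 and 386 in WT. The differences of −0.26 ± 0.16 in DMSO (edgeR adjusted p = 0.279) and −0.31 ± 0.16 in EZ (0.177) did not pass, and gene counts do not tell spliced from unspliced XBP1. ERN1 (ENSG00000178607, chromosome 17, 64039142 to 64130819) had 147, 51.8, 59.2 and 81.0 CPM in DKO EZ, 49.5, 48.9, 52.5 and 117 in DKO DMSO, 107, 60.4, 61.4 and 69.6 in WT EZ and 54.1, 75.5, 75.04 and 192 in WT DMSO. Its highest libraries were replicate 1 in both EZ groups and replicate 4 in both DMSO groups, and all groups overlapped. ATF6 (ENSG00000118217, chromosome 1, 161766294 to 161964070) had 171, 129.9, 134 and 177 CPM in DKO EZ, 130.2, 117, 137 and 210.1 in DKO DMSO, 234, 165, 156 and 176 in WT EZ and 162, 169, 167 and 356 in WT DMSO, with overlap in each comparison. The log2 fold change in DMSO was −0.57 ± 0.44 for ERN1 and −0.52 ± 0.25 for ATF6 (edgeR adjusted p = 0.424 and 0.160), and in EZ 0.18 ± 0.44 and −0.25 ± 0.25 (0.828 and 0.538). Without DKO DMSO replicate 4 XBP1, ATF6 and SEL1L were lower in DKO in DMSO (edgeR adjusted p = 0.0282, 0.0463 and 0.0300), but with WT DMSO replicate 4 dropped in its place they were at −0.07, −0.12 and −0.14 (edgeR adjusted p = 0.819, 0.727 and 0.533).

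Of 6 tested degradation genes, HERPUD1 was lower in DKO in DMSO and none was called in EZ. HERPUD1 (ENSG00000051108, chromosome 16, 56932048 to 56944863), an ER membrane protein that organises the SYVN1 (HRD1) ubiquitin ligase complex, had 151, 116, 112 and 134 CPM in DKO EZ and 218, 160.4, 161 and 190.2 in WT EZ, with no overlap. Under DMSO the values were 121, 116, 111 and 186 CPM in DKO and 169.8, 217, 210.2 and 415 in WT, where DKO DMSO replicate 4 lay among the WT libraries. The log2 fold change was −0.92 ± 0.24 in DMSO (edgeR adjusted p = 0.0110) and −0.51 ± 0.23 in EZ (0.145). HERPUD1 kept its DMSO call without any 1 library. The log2 fold change was −0.53 (edgeR adjusted p = 0.0462) when WT DMSO replicate 4 was dropped and −0.78 (0.00141) without both DMSO libraries numbered 4, and it passed in EZ without WT DMSO replicate 4 (0.0357). The ligase SYVN1, its partner SEL1L, the mannosidase-like EDEM1 and the channel proteins DERL1 and DERL2 ran from −0.56 to −0.02 in DMSO and from −0.10 to 0.08 in EZ. In translocation and export, SEC61B, a subunit of the translocation channel, and SEC24D, a cargo receptor of COPII vesicles, were not called, with SEC24D at −0.70 ± 0.25 in DMSO (edgeR adjusted p = 0.0582, and 0.0356 or 0.0145 when DKO DMSO replicate 4 or WT DMSO replicate 1 was dropped). When WT DMSO replicate 4 was dropped SEC24D was at −0.24 (edgeR adjusted p = 0.330).

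Counted by libraries, 4 of 31 members had every DKO DMSO library below every WT DMSO library, which 10.9% of all tested genes had, and none had the opposite (10.8%). They were HSPA5, CANX, DNAJC3 and CREB3L2. In EZ the count was 10 below, with 13.4% of all tested genes, and 1 above, with 10.6%: the 10 were HSPA5, HSP90B1, CANX, PDIA3, PDIA4, HERPUD1, DNAJC3, XBP1, SEC24D and CREB3L2.

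The number of members called between genotypes depended on single libraries. In DMSO it was 2 without WT DMSO replicate 4 (HERPUD1 and CREB3L2; 16.4% of all tested genes called), 3 without DKO DMSO replicate 1 or 3 (15% and 14.4% of all tested genes), and 10 without DKO DMSO replicate 4 (18.8%). Without both DMSO libraries numbered 4 it was 5 (16.3% of all tested genes), namely HERPUD1, DNAJB9, DNAJC3, SEL1L and CREB3L2, with HSPA5 at −0.51 (edgeR adjusted p = 0.0550). In EZ it was 1 without DKO EZ replicate 1 or WT EZ replicate 2 (17.5% and 16.6% of all tested genes), 3 without DKO EZ replicate 2 or 3 (16.5% and 16.7%), and 0 when WT EZ replicate 4 was dropped (15.1%). Leaving out both DMSO libraries numbered 4, which enter the EZ comparison only through the shared estimate of spread, left 13 members called (24.4% of all tested genes): HSPA5, HSP90B1, CALR, CANX, PDIA3, PDIA4, HERPUD1, DNAJB9, DNAJC3, HYOU1, XBP1 and SEC24D lower and DNAJC10 higher. The 6 libraries of high RN7SL1 share held 1 WT library per treatment, too few for a comparison of genotypes within them. Among the other 10, with 2 DKO and 3 WT libraries per treatment, WT DMSO replicate 4 included, 28 of 31 members were lower on average in DKO in DMSO and 23 in EZ (median differences of −0.31 and −0.23, log2).

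The second comparison was the drug. With enzalutamide 0 of 31 members were called in DKO, with 1.48% of all tested genes called, and 1 of 31 was lower in WT, with 3.32% called and 1.07% lower. In DKO, 3 members had an unadjusted p under 0.05 by edgeR, and DESeq2 also called 0 (4.09% of all tested genes). The median log2 fold change of EZ over DMSO was −0.11 in DKO and −0.23 in WT, against 0.01 and −0.03 for all tested genes, with 24 and 29 of 31 members below 0. Without both DMSO libraries numbered 4 the medians were −0.02 in DKO and 0.03 in WT, with 18 and 11 members below 0. Without WT DMSO replicate 4 alone, the WT median was 0.06, again with 11 below 0. Pair by pair in WT, EZ over DMSO of the same number had a member median of −0.05, −0.04 and −0.10 for replicates 1 to 3 and of −0.52 for replicate 4. The calls in this paragraph come from fits without pairs. With the replicate number as a block within genotype, CREB3L2 was the only member called, lower in both genotypes. That fit called 7.75% of all tested genes in DKO and 12.1% in WT.

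**Figure D5:**
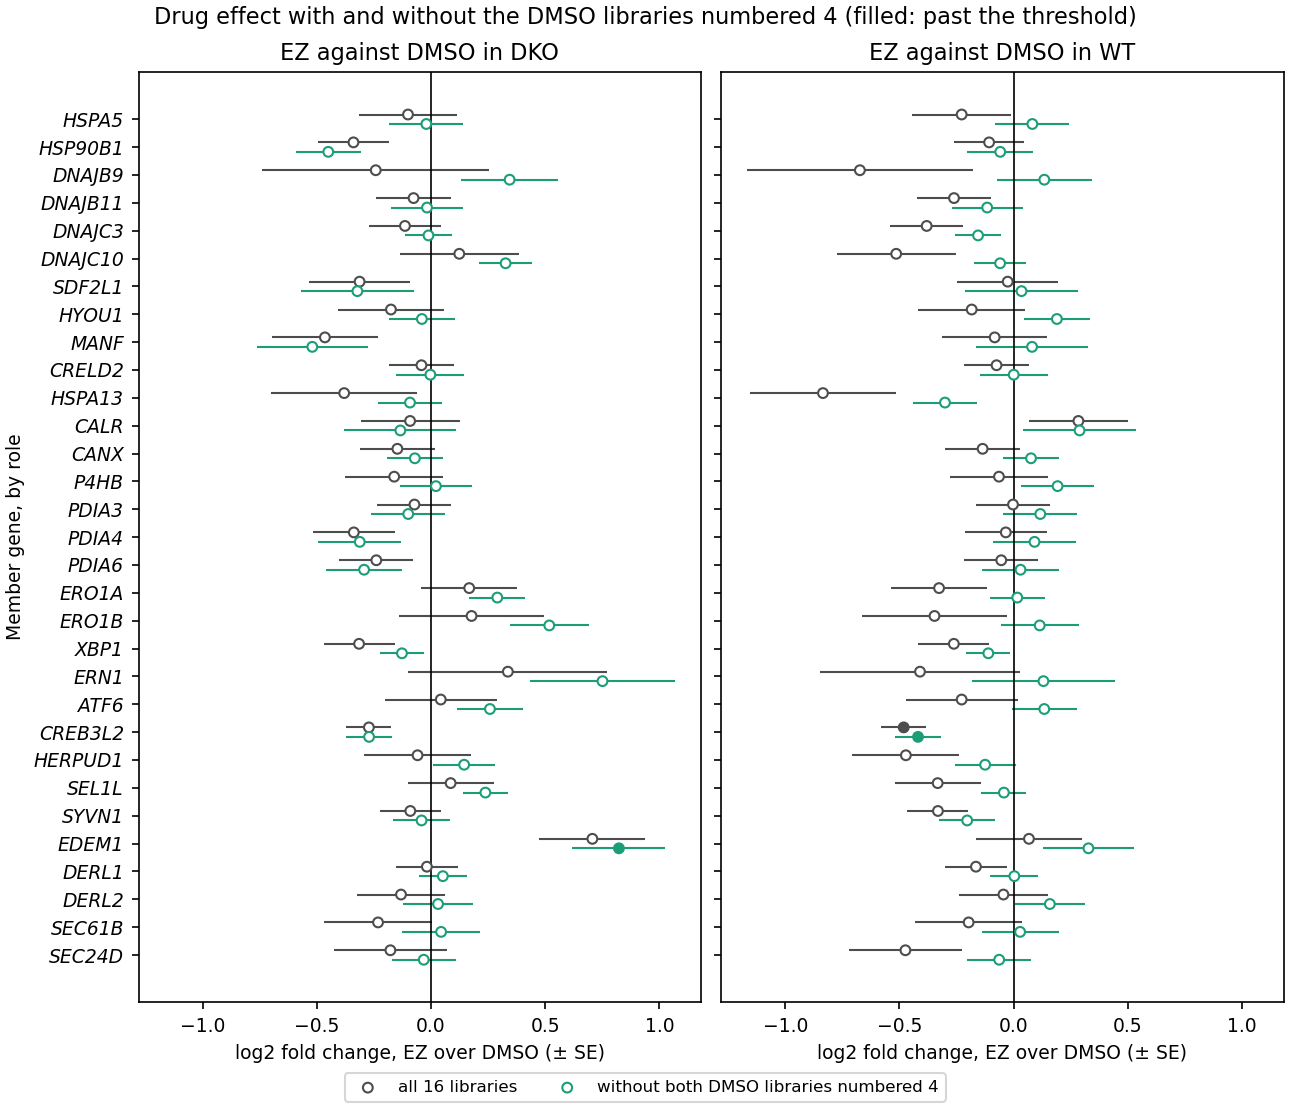
Log2 fold change of EZ over DMSO (point ± SE, edgeR) for the 31 tested members by role, in DKO (left) and WT (right), from all 16 libraries (grey) and without both DMSO libraries numbered 4 (green), with filled points past the threshold. The filled points are CREB3L2 in WT under both and EDEM1 in DKO without those libraries.

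CREB3L2 was the called member. Its levels, given above, were 84.0 ± 3.26 CPM in DKO EZ and 101 ± 7.80 in DKO DMSO, and 97.7 ± 7.83 in WT EZ and 136 ± 14.9 in WT DMSO (SD, n = 4 libraries each). EZ libraries lay below DMSO libraries in both genotypes without overlap, and in all 4 same-numbered pairs of each genotype. The log2 fold change was −0.27 ± 0.10 in DKO (edgeR adjusted p = 0.207) and −0.48 ± 0.10 in WT (0.0115). With the replicate number as a block within genotype CREB3L2 was lower in both, at −0.27 in DKO (edgeR adjusted p = 0.0456) and −0.48 in WT (0.00182), with 7.75% and 12.1% of all tested genes called. The WT call was lost without WT DMSO replicate 2 (edgeR adjusted p = 0.0702), WT EZ replicate 1 (0.0651) or WT EZ replicate 3 (0.0553). Averaged over both genotypes the effect was −0.38 ± 0.07 (edgeR adjusted p = 0.00253), the only member called of 31, with 9.31% of all tested genes called and 3.32% lower, and this call held in all 27 alternatives. With the block within genotype 4 members were called lower in the average (20.9% of all tested genes called), CREB3L2, XBP1 (−0.27), DNAJB11 (−0.17), a J-domain cofactor of HSPA5, and MANF (−0.30), with edgeR adjusted p-values of 0.0457, 0.0472 and 0.0485 for the last 3.

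EDEM1, which helps to pull misfolded glycoproteins out of folding, leaned the other way. It had 367, 176, 187 and 236 CPM in DKO EZ and 126, 138, 145 and 182 in DKO DMSO, and 277, 205, 204 and 226 in WT EZ and 171, 184, 189 and 325 in WT DMSO. The groups overlapped in both genotypes, and EZ was above DMSO in all 4 same-numbered pairs in DKO and in 3 of 4 in WT. The log2 fold change of 0.71 ± 0.23 in DKO (edgeR adjusted p = 0.159) and 0.07 ± 0.23 in WT (0.929) did not pass. EDEM1 rose with EZ in DKO without both DMSO libraries numbered 4 (0.82, edgeR adjusted p = 0.0324; 4.48% of all tested genes called), and in the average of both genotypes without WT DMSO replicate 4 alone (0.53, 0.0209). The high DKO EZ value was replicate 1, in which MKI67 stood at 47.2 CPM, against 114 to 186 in the other 3, and WT EZ replicate 1 had MKI67 at 17.6, against 116 to 133. The part of that in EDEM1 was not tested.

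The other members differed by less than the test could call. In DKO the lowest were MANF at −0.46 ± 0.23 and HSPA13 at −0.38 ± 0.32. In WT the lowest were HSPA13 at −0.83 ± 0.32 (edgeR adjusted p = 0.199) and DNAJB9 at −0.67 ± 0.50 (0.581), which became −0.30 and 0.13 without both DMSO libraries numbered 4, and CALR was the highest at 0.28 ± 0.22. HSPA5 was at −0.10 ± 0.22 in DKO, with an interval of −0.52 to 0.32 (log2, 95%), and at −0.23 ± 0.22 in WT, with −0.65 to 0.20. These intervals come from the fit without pairs. With the block within genotype HSPA5 was at −0.10 ± 0.13 in DKO (edgeR adjusted p = 0.707) and −0.19 ± 0.13 in WT (0.386). Counted by libraries, MANF and CREB3L2 had every DKO EZ library below every DKO DMSO library (4.41% of all tested genes), DNAJC3 and CREB3L2 the same in WT (3.81%), and no member had the opposite in either genotype (5.2% in DKO and 5.78% in WT).

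The third comparison was whether the drug effect differed between genotypes. The interaction, drug effect in DKO minus drug effect in WT, was called for 0 of 31 members and 0 of 21810 genes (0.0%) by edgeR, with 0 members and 648 genes at an unadjusted p under 0.05, and for 0 members and 10 genes (0.0459%) by DESeq2. The member estimates ran from −0.38 ± 0.33 for MANF to 0.75 ± 0.62 for ERN1. CREB3L2 had 0.21 ± 0.14, with an interval of −0.06 to 0.48, in the fit without pairs. With the replicate number as a block within genotype it had 0.21 ± 0.10 (edgeR adjusted p = 0.543). Its smaller change in DKO was thus not shown to differ after adjustment over all tested genes. Each drug comparison shares a group of libraries with each genotype comparison, so the values of the drug and genotype comparisons are set side by side and not correlated.

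How alike the members were within groups depended on the libraries numbered 4. After group means were removed, the members most like HSPA5 over the 16 libraries were HYOU1 (Pearson r of log2 CPM 0.906), SEC24D (0.847), SEL1L (0.825), CANX (0.815) and DERL1 (0.796), and the least like were SDF2L1 (0.190), a cofactor of the J-domain proteins, and CALR (0.268). Without both DMSO libraries numbered 4, over 14 libraries, the first 5 had 0.756, 0.563, 0.537, 0.510 and 0.459, while HSP90B1 had 0.635, against 0.348 over all 16. The points share libraries, depth and scaling, and no test was made.

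Other genes of the pathway were counted from lists by function, beside 9.7% of all tested genes lower in DKO in DMSO and 11.4% in EZ. The DMSO values include WT DMSO replicate 4, where most genes of each list had their highest level of that group. They are not given without that library. In either direction, 11.8% to 23.5% of the 4 lists given here were called, near the 18.6% and 20.7% of all tested genes, so their counts are no result about the lists. Of 17 tested genes of unfolded protein response signalling outside the members, 0 were higher and 2 lower in DKO in DMSO, PPP1R15B (−0.65 ± 0.12, edgeR adjusted p = 0.000983), a subunit of the phosphatase that restores translation, and MBTPS2 (−0.42 ± 0.13, 0.0308), the protease that cuts ATF6, and 4 lower in EZ, among them WFS1 (−0.54 ± 0.18, 0.0388). The median log2 fold change of this list was −0.23 in DMSO and −0.28 in EZ. Of 30 other ER degradation genes 5 were lower in DKO in DMSO, led by the mannosidase-like EDEM3, at 148 ± 21.96 CPM in DKO and 371 ± 64.9 in WT (−1.33 ± 0.15, edgeR adjusted p = 5.13e-06), and 4 in EZ, again with EDEM3 (−0.88 ± 0.14, 0.000304). Of 33 other folding enzymes 1 was higher and 5 lower in each, with the prolyl isomerase PPIB at −0.64 ± 0.16 in DMSO (edgeR adjusted p = 0.00803) and −0.84 ± 0.16 in EZ (0.00109). Of 24 other translocation genes 5 were lower in DMSO and 3 in EZ, with SEC63, the J-domain partner of HSPA5 at the channel, at −0.68 ± 0.14 (edgeR adjusted p = 0.00236) and −0.50 ± 0.14 (0.0159).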

How the data were processed

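Each library has a deposited file of raw counts, made by the authors, with 1 row per Ensembl gene ID. STAR 2.7.3a and GRCh38 are named in the submitters' processing notes; how reads were counted, with which annotation and strand setting, is not given there. A reference gene table named 60357 of 60676 IDs. Gene coordinates and exon lengths are from GENCODE v29 (GRCh38). Groups and replicate numbers came from sample titles. The members and lists were chosen with earlier results of these data known. The second targeted gene is not reported here.

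Counts of all genes were filtered (filterByExpr, minimum count 10, minimum total 15), scaled by TMM and fitted with 1 mean per group in edgeR 4.0.16 (R 4.3.3; robust quasi-likelihood F-test, checked on simulated data), with Benjamini-Hochberg adjustment over all tested genes at 0.05; fold changes are log2 ± SE. The simulated libraries varied independently, so that check does not cover libraries that deviate together. The biological coefficient of variation was 28.0%. DESeq2 1.42.0 was an alternative, besides other scalings and filters, left-out libraries, an RN7SL1 covariate and replicate blocks; 3 alternatives without libraries numbered 4 or 1 were chosen after seeing the data. CPM are scaled by the TMM library size. Replicates differed beyond counting noise (chi-square per degree of freedom 5.16 to 92.7). Same-numbered EZ and DMSO libraries of a genotype deviated together in every pair (correlation of deviations from group means 0.403 to 0.664 in DKO and 0.326 to 0.625 in WT, limit 0.1), so the numbers pair drug comparisons. Levels in every library are given for members past the threshold and for HSPA5, XBP1, ERN1, ATF6, HERPUD1 and DNAJB9; from other lists the 2 highest and 2 lowest called fold changes could be named.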

Additional observations from a re-analysis of the deposited data

Results flagged for a closer look

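Levels of the 31 tested members were checked in each group of 4 for a library whose gap to its nearest neighbour, as a share of the group's range, exceeded Dixon's 95% limit, which chance gives in about 1 in 20 groups. This held for 29 of 124 sets of member and group, 15 of them through WT DMSO replicate 4 and 8 through DKO DMSO replicate 4. The share of members so marked was 6.45% in DKO EZ, 32.3% in DKO DMSO, 6.45% in WT EZ and 48.4% in WT DMSO, against 7.51%, 7.26%, 7.64% and 8.95% of all tested genes.

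In WT DMSO replicate 4 the chaperones and cofactors HSPA5, DNAJB9, DNAJC3, DNAJC10, HYOU1 and HSPA13 stood apart at 2266, 214, 306, 571, 884 and 382 CPM. The lectin chaperone CANX stood at 2108 CPM, the isomerase P4HB at 1218 and the oxidase ERO1A at 139.9. The regulators XBP1, ERN1 and ATF6 stood at 386, 192 and 356 CPM, and the degradation genes EDEM1, DERL1 and DERL2 at 325, 147 and 85.0, with DERL1 at 98.2 to 98.3 CPM in the other 3 libraries.

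In DKO DMSO replicate 4 DNAJB9 stood apart at 86.4 CPM, DNAJB11 at 67.8, DNAJC3 at 172, DNAJC10 at 353, HSPA13 at 230.4, ERN1 at 117, HERPUD1 at 186 and ERO1B at 76.2. Single members stood apart in other libraries. These were PDIA3 at 377 CPM in DKO DMSO replicate 2, PDIA4 low at 249.5 in DKO DMSO replicate 1, MANF low at 25.9 in DKO EZ replicate 1, ERO1B at 70.1 in DKO EZ replicate 4, DERL2 low at 49.7 in WT EZ replicate 1 and SEC61B at 58.6 in WT EZ replicate 4.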

How the results depend on the processing

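Over 27 or 28 alternatives per comparison, 4937 of 5084 member values kept their side of the threshold, 90 calls were lost and 57 gained, and no called member changed direction. Percentages after a count are the share of all tested genes called in either direction under the same setting. For DKO against WT in DMSO (6 members called, 18.6%) the count was 1 with library totals (20.9%), 2 with no filter on low counts (6.55%), 1 with only the compared groups (14.5%), 11 with the replicate number as a block (26.9%) and 3 without all libraries numbered 4 (15.8%), and 2 to 10 with 1 library left out (13.7% to 19.1%). For DKO against WT in EZ (5, 20.7%) it was 0 with library totals (23.6%), 3 with no filter (7.32%), 9 with only the compared groups (18.8%), 10 with the replicate block (29.4%), 13 without both DMSO libraries numbered 4 (24.4%) and 2 without all libraries numbered 4 (17.1%), and 0 to 7 with 1 library left out (15.1% to 21.9%). Across genotypes same-numbered libraries did not deviate together in every pair (correlations −0.07 to 0.67 in DMSO and −0.05 to 0.52 in EZ), so that block is a hint only, and a block within genotype could not be fitted there. For EZ against DMSO in WT (1, 3.32%) the count was 0 with only the compared groups (1.37%) and without both EZ libraries numbered 1 (2.67%), and 0 to 1 with 1 library left out (1.44% to 5.02%). In DKO (0, 1.48%) it was 1 with the block within genotype (7.75%) and 1 without both DMSO libraries numbered 4 (4.48%), and 0 with any 1 library left out (0.408% to 2.11%). For the average over genotypes (1, 9.31%) it was 3 with upper-quartile scaling (11%), 4 with library totals (10.2%), 4 with the replicate block (16.3%), 4 with the block within genotype (20.9%), 2 without both DMSO libraries numbered 4 (15.5%) and 2 without all libraries numbered 4 (11.1%), and 1 to 2 with 1 library left out (5.99% to 12.3%). The interaction stayed at 0 members throughout, with at most 0.179% of all tested genes called. The blocks changed no other call of a drug comparison than those printed here and above, where DNAJC3, XBP1 and HSPA13 joined CREB3L2 in the average with the replicate block. The RN7SL1 covariate left all 6 counts as they were. Library totals gave 3479 higher and 1082 lower genes for DKO against WT in DMSO, against 1943 and 2115 with TMM, and 3966 and 1183 in EZ, against 2027 and 2481 (upper quartile 2703 and 1952). Depth limits SDF2L1, with 31 to 206 reads per library, and DERL3, and the causes of these differences were not tested.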

Other observations

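In the lists of ER export and of sugar chain assembly, 1 gene each was called with the drug in both genotypes, where 1.48% of all tested genes were called in DKO and 3.32% in WT. MIA3 (TANGO1), which loads collagens into transport vesicles, rose with EZ in both genotypes. It averaged 449 ± 25.3 CPM in DKO EZ and 303 ± 33.2 in DKO DMSO (0.57 ± 0.11, log2, edgeR adjusted p = 0.0197), and 814 ± 78.6 in WT EZ and 424 ± 51.9 in WT DMSO (0.94 ± 0.12, 0.000253; SD, n = 4 libraries each). UAP1, which makes the activated sugar UDP-GlcNAc, fell in both, to 105 ± 5.28 CPM in DKO EZ, against 157 ± 21.8 in DKO DMSO (−0.58 ± 0.12, edgeR adjusted p = 0.0213), and to 139.8 ± 14.1 in WT EZ, against 278 ± 36.2 in WT DMSO (−0.99 ± 0.12, 0.000192). Of 32 tested export genes MIA3 was the only one called in each genotype, and of 24 glycan genes UAP1 was the only one. The sulfhydryl oxidase QSOX1 rose in WT to 463 ± 179 CPM in EZ, against 232 ± 53.4 in DMSO (edgeR adjusted p = 0.0383), and the disulfide isomerase AGR2 fell to 2.20 ± 1.03, against 7.09 ± 4.46 (edgeR adjusted p = 0.0300). The drug values in this paragraph come from the fit without pairs and are not given with the block.

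Between genotypes the export list held 1 higher and 10 lower of 32 genes in DMSO and 1 higher and 8 lower in EZ, with median log2 fold changes of −0.40 and −0.30. In either direction 34.4% of the list was called in DMSO and 28.1% in EZ, against 18.6% and 20.7% of all tested genes (9.7% and 11.4% lower). The 1 higher was KDELR3, a receptor that returns chaperones from the Golgi to the ER. It averaged 27.3 ± 3.48 CPM in DKO EZ and 7.38 ± 0.253 in WT EZ (1.89 ± 0.20, edgeR adjusted p = 3.57e-06), and 20.9 ± 5.22 in DKO DMSO and 10.3 ± 3.04 in WT DMSO (1.03 ± 0.19, 0.00120). Among the lower were SAR1B, the small GTPase that starts COPII coats (−0.81 ± 0.11 in DMSO, edgeR adjusted p = 7.22e-05), and the cargo receptor TMED3 (−0.70 ± 0.18 in DMSO, edgeR adjusted p = 0.0116, with −0.85 ± 0.18 and 0.00271 under EZ). In WT DMSO replicate 4, 30 of the 32 export genes had their highest level of the group. Their median there was 0.63 (log2) above the median of the other 3 libraries. The DMSO values of this list include that library and are not given without it. The glycan list held 1 higher and 3 lower of 24 genes in DMSO and 0 higher and 2 lower in EZ, or 16.7% and 8.33%, at or below the shares of all tested genes.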
